A study of Mus musculus with 54 samples.

Results

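The clustered histone genes were taken as every row of the 3 deposited log2 CPM tables whose symbol begins with Hist1h, Hist2h, Hist3h or Hist4h. There were 68 such genes among 21048 features in all. Of these, 55 belong to the Hist1 cluster on chromosome 13, 9 to Hist2 on chromosome 3, 3 to Hist3 on chromosome 11, and Hist4h4 lies alone on chromosome 6. By product they comprised 6 H1, 18 H2A, 19 H2B, 12 H3 and 13 H4 genes.

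RNA from whole mouse cerebellum was sequenced in 54 libraries at P5, P28 and 9 weeks of age. At P5 the groups were Control with 3 libraries, RnaseH2B Nes-cre, Atm Nes-cre and p53 Nes-cre with 3 each, and the compound RnaseH2B,Atm Nes-cre and RnaseH2B,p53 Nes-cre with 4 each. At P28 there were 5 libraries in each of Control, Atm, RnaseH2B and RnaseH2B,Atm, and at 9 weeks Control and RnaseH2B had 7 each. The mutant groups are called below by the gene or genes in their label. Nes-cre is a Cre recombinase driven by Nestin sequences, which acts in neural progenitors and the cells they give rise to, so other cells of the cerebellum keep the gene. The labels give neither strain nor sex, say nothing of whether controls carry Cre or floxed alleles, and do not state that replicates are separate animals. The p-values therefore measure the spread between these libraries, which may be technical.

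Replication-dependent histone genes provide the protein for new chromatin while DNA is copied, and their mRNAs rise and fall with S phase. H2A, H2B, H3 and H4 form the core of the nucleosome, and H1 binds the linker DNA between nucleosomes. Their mRNAs usually lack a poly-A tail and end in a short stem-loop that is bound by SLBP, although some clustered genes also make polyadenylated forms, in particular in cells that no longer divide. In the early postnatal cerebellum the main dividing cells are granule neuron progenitors. RNase H2, of which Rnaseh2b encodes a subunit, takes misplaced ribonucleotides out of the genome. The ATM kinase signals double-strand breaks, and the Trp53 product, p53, regulates transcription after such damage. The P5 and 9-week libraries were made from total RNA and are read first. The P28 libraries were enriched for poly-A RNA, which leaves out most transcripts without a tail. How much tail-less RNA was carried over was not measured. No level was therefore compared between P28 and the other ages by a test.

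The stem-loop was looked for in the GENCODE models of the members, on the GRCm38 assembly, as 16 bases made of a 6-base stem, a 4-base loop and the matching stem. It was found in 45 of 68 members, most often as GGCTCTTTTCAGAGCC (25 members), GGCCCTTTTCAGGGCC (7) and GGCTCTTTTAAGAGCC (6). The annotated models differed in how far they run on beyond it. In 22 members the model ended within 100 bases after the stem-loop, in 23 it ran further, and in 23 no stem-loop was found. The 100-base limit and these 3 kinds were chosen after the values had been seen. The sites below are those of members on which the results turn, 2 with a model that ends within 100 bases and 5 with one that runs further, with the stem-loop in capitals and 5 bases on either side.
Hist1h4h: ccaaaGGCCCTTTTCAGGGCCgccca
Hist1h2bm: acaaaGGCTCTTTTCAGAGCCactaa
Hist1h4i: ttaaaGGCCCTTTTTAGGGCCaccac
Hist1h1c: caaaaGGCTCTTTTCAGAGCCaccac
Hist1h2ac: ccaaaGGCTCTTTTCAGAGCCcccac
Hist3h2a: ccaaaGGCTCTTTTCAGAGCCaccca
Hist4h4: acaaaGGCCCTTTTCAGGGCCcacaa
The stem-loop of Hist1h4h lies at chr13:23531453-23531478 and that of Hist1h2bm at chr13:21722501-21722526, both on the plus strand, and each is followed by 46 more bases of model. In Hist1h4i, at chr13:22040961-22040986 on the minus strand, 330 bases follow. The models of Hist1h1c (chr13:23739507-23739532, plus strand), Hist1h2ac (chr13:23683472-23683497, minus strand), Hist3h2a (chr11:58955167-58955192, plus strand) and Hist4h4 (chr6:136803993-136804018, minus strand) run on for 840, 2010, 1643 and 2445 bases. Hist1h2bc and Hist2h2be, which are among the members with known polyadenylated forms, had no stem-loop in their models.

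Upstream sequence was matched in RefSeq (GRCm38.p6) for 59 of 68 members, and the 250 bases before the annotated start were searched on both strands. CCAAT, the binding motif of NF-Y, was present in 48 of 59 (81.4%) against 34.5% of all 27025 promoters. It was found in 6 of 6 H1, 15 of 15 H2A, 16 of 16 H2B and 8 of 10 H3 promoters, but in 3 of 12 H4 promoters. TATAAA was present in 28 of 59 (47.5%) against 13% of all promoters. The octamer ATTTGCAT, which OCT factors bind, was present in 12 of 59 (20.3%) against 1.61%, in 6 of 15 H2A and 6 of 16 H2B promoters and in 0 H1, H3 or H4 promoters. The windows are not all separate DNA, since neighbouring H2A and H2B genes on opposite strands can share them. Those of Hist1h2ag and Hist1h2bj span chr13:22042950-22043199 and chr13:22042948-22043197. The octamers counted for Hist1h2ae and Hist1h2bg are 1 site, as are those for Hist1h2ah and Hist1h2bk. Such matches are counted for both genes, so the counts are of genes and not of separate sites. A match is a description of the letters only. The promoters of Hist1h2bm, which had the largest decrease described below, and of Hist1h4i, which did not share it, are shown with their motif matches in capitals.
Hist1h2bm promoter: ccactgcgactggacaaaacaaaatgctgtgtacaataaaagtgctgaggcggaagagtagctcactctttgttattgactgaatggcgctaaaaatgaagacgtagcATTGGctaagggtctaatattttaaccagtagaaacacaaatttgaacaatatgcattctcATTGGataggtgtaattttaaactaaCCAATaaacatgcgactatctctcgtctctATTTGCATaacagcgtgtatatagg
Hist1h4i promoter: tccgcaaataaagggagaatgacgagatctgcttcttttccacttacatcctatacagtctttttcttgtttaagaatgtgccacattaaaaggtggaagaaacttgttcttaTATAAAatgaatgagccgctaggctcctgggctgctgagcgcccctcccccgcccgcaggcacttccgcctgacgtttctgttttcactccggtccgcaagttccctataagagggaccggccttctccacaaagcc
The first window spans chr13:21721794-21722043 on the plus strand and holds 3 CCAAT matches, of which 2 are on the other strand as ATTGG, and 1 octamer. The second spans chr13:22041363-22041612 on the minus strand and holds TATAAA without either of the other motifs.

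Reads in genes, in units of 1 M reads, ran from 48.2 to 95.1 at P5 outside 1 library of 711 (RnaseH2B,p53 replicate 3), and from 24.1 to 89.7 at P28; the depth at 9 weeks is unknown. Rnaseh2b transcripts were lower in every library labelled with its deletion, with 3.76 to 4.61 log2 CPM in P5 controls against 1.82 to 2.30 in the 3 groups that carry it. Trp53 was at 3.02 to 4.19 in P5 controls and at 1.30 to 2.23 in both p53 groups. Atm was at 5.35 to 6.22 log2 CPM in controls and 5.03 to 5.995 in the Atm group at P5, and at 4.79 to 4.94 and 4.60 to 4.97 at P28, so in the Atm group its level overlapped with controls. In RnaseH2B,Atm it was at 5.28 to 5.70 at P5, inside the range of controls and below all RnaseH2B libraries (5.93 to 6.13), and at 3.97 to 4.10 at P28, below all controls. Defining cerebellar genes were present, with Gabra6 at 9.16 to 9.62 and Pcp2 at 6.63 to 7.31 log2 CPM in 9-week controls. At P5, control replicate 2 and Atm replicate 1 stood apart. The granule progenitor gene Atoh1 was at 2.15 and -3.42 log2 CPM in them, against 3.25 and 3.87 in the other controls and 3.24 and 3.61 in the other Atm libraries. The choroid plexus gene Ttr was at 6.26 and 3.38 log2 CPM there, but it did not single them out, since a second Atm library was at 5.65, against 9.83 and 10.32 in the other controls. Choroid plexus markers summed to 109 CPM in control replicate 2 and to 45.3, 84.6 and 1015 CPM in the 3 Atm libraries. Their mean over S phase genes was also the lowest of their groups, at 3.87 and 2.97 log2 CPM. These libraries were known from earlier results to stand apart, and they are also the lowest of their groups for summed histone RNA, so leaving them out moves the outcome itself. P5 counts and medians that rest on them are given with and without them.

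Nearly all clustered histones were detected in total RNA at P5. Of 68 members 66 passed the filter of 1 CPM in at least 3 libraries. The other 2, Hist1h1t and Hist1h2ba, did not. Per length, H4 genes led. In controls, Hist1h4d was at 671 ± 281 FPKM (SD, n = 3) and Hist1h4h at 596 ± 251, followed by Hist1h4k, Hist1h4c, Hist1h4f and the linker histone gene Hist1h1e at 361 ± 157. These neighbours in the order do not differ beyond their spread. No single gene dominated, since the 6 highest made 24.9% of the summed mean FPKM and 17 members were needed for 50% of it. At the other end of the members tested, Hist2h2be was at 3.53 ± 1.42 FPKM in controls and Hist3h2a at 7.37 ± 1.56. Many members are near copies of each other. For 33 of 68, fewer than 50% of the 50-base windows of the model occur only in that gene, and for Hist2h2aa2 and Hist2h3c1 the share was 0%, for Hist1h2bq 2.68% and for Hist1h2br 11.3%, so the split of reads among such members is uncertain.

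Summed over all members, histone RNA made 7685, 3007 and 5721 CPM in the 3 P5 control libraries. The RnaseH2B libraries held 6479, 4487 and 6919 CPM, and the RnaseH2B,Atm libraries 3322, 2647, 3101 and 2397 CPM. All 4 RnaseH2B,Atm libraries were below all 3 RnaseH2B libraries and below 2 of the 3 controls. The Atm libraries held 1033, 5226 and 6616 CPM, the p53 libraries 5274 to 7112 and the RnaseH2B,p53 libraries 4209 to 7041. The mean of RnaseH2B,Atm was 0.524 times that of all controls, and 0.428 times that of the controls without replicate 2. On the latter base the ratio was 0.411 for H1, 0.407 for H2A, 0.408 for H2B, 0.414 for H3 and 0.482 for H4 genes. By cluster it was 0.414 for Hist1, 0.481 for Hist2, 0.690 for Hist3 and 0.678 for Hist4. In bulk RNA, fewer dividing cells and less histone RNA per cell cannot be told apart.

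**Figure D1:**
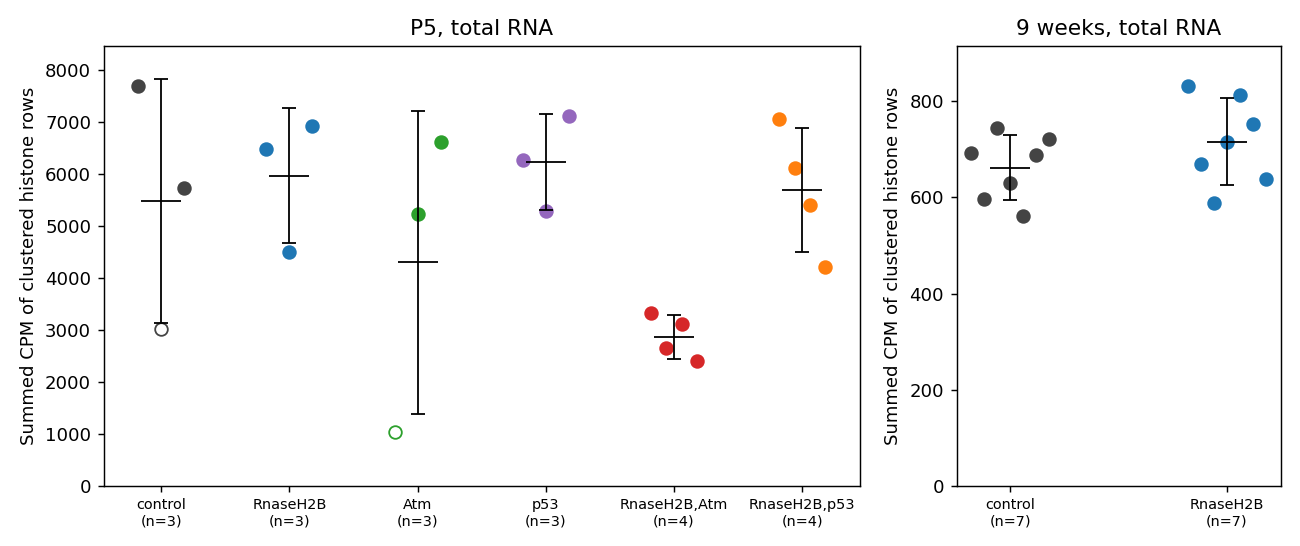
Summed level of all clustered histone genes, in CPM, for each library at P5 and at 9 weeks (total RNA); horizontal bars are the mean and SD of a group, and open circles mark P5 control replicate 2 and Atm replicate 1. The 4 RnaseH2B,Atm libraries sit between 2397 and 3322 CPM, below all RnaseH2B libraries, and at 9 weeks the groups overlap.

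The comparison of RnaseH2B,Atm with RnaseH2B at P5 asks how libraries that also carry the Atm label differ. It involves neither of the libraries that stand apart except through the shared estimate of spread. Histone genes of every class had lower levels. Of 66 members tested, 60 had all 4 RnaseH2B,Atm libraries below all 3 RnaseH2B libraries, against 18% of all features, and the median difference was -1.06 on the log2 scale. In the fit of all P5 groups by limma no member passed an adjusted p of 0.05, against 2.04% of all 15421 features, while 38 had an unadjusted p below 0.05; limma-voom on recovered reads also called 0, with 39. With only these groups in the fit, 59 of 66 were called lower, against 8.92% of features. The count thus depends on which P5 groups enter the fit.

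The largest differences were those of H2B genes. Hist1h2bm was at 6.85, 6.30 and 6.98 log2 CPM in RnaseH2B and at 5.14, 4.74, 5.03 and 4.55 in RnaseH2B,Atm. The groups did not overlap, and the difference was -1.84 ± 0.65 (SE; limma adjusted p = 0.146) in the fit of all groups and -1.84 with an adjusted p of 0.00707 (limma) in the fit of these groups alone. Hist1h2bn, for which 13.6% of the 50-base windows occur only in that gene, was at 7.13, 6.61 and 7.32 against 5.60, 5.09, 5.43 and 4.95. The abundant Hist1h4h was at 7.91, 7.47 and 8.10 in RnaseH2B and at 6.98, 6.77, 7.13 and 6.86 in RnaseH2B,Atm, again with no overlap, for a difference of -0.89 ± 0.39 (limma adjusted p = 0.199). By class the median difference was -1.04 for H1, -1.18 for H2A, -0.99 for H2B, -1.14 for H3 and -0.94 for H4.

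Against the controls, 1 of 66 members was called lower in RnaseH2B,Atm when all libraries were kept, against 3.38% of all features lower and 9.86% in either direction, and 65 of 66 were below 0 with a median of -0.85. The member called was Hist3h2bb-ps, annotated as a pseudogene, at 4.89, 3.89 and 4.53 log2 CPM in controls and 3.28, 3.77, 3.25 and 3.15 in RnaseH2B,Atm. All 4 libraries were below all controls, and the difference was -1.08 ± 0.25 (limma adjusted p = 0.0133). That call was lost without control replicate 1 or 3. Without control replicate 2 and Atm replicate 1, 60 of 66 members were called lower and 0 higher, against 22.2% of all features lower, and the median was -1.25 where that of all features was 0.03. Then 64 of 66 members had all RnaseH2B,Atm libraries below both remaining controls, against 28.1% of features. With all libraries it was 6 of 66, against 8.24%.

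Against the Atm group the same dependence was seen. With all libraries 0 of 66 members were called by limma, against 9.5% of features, 3 had an unadjusted p below 0.05 and limma-voom called 0. The median was -0.15. Without the libraries that stand apart 56 were called lower, against 12.7% of features, with a median of -1.11, and with Atm replicate 1 alone left out 49 were called lower, against 5.29%. The comparison with RnaseH2B gave 58 members lower against 14.2% in the fit without both libraries. These 3 comparisons share the 4 RnaseH2B,Atm libraries and are not independent of each other. The difference between the effects of RnaseH2B deletion with and without the Atm label was called for 0 of 66 members, against 0.0% of features, and 2 members had an unadjusted p below 0.05; limma-voom called 0. The median was -0.39. Without the libraries that stand apart it was still 0, with 55 members at an unadjusted p below 0.05 and a median of -0.93.

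**Figure D2:**
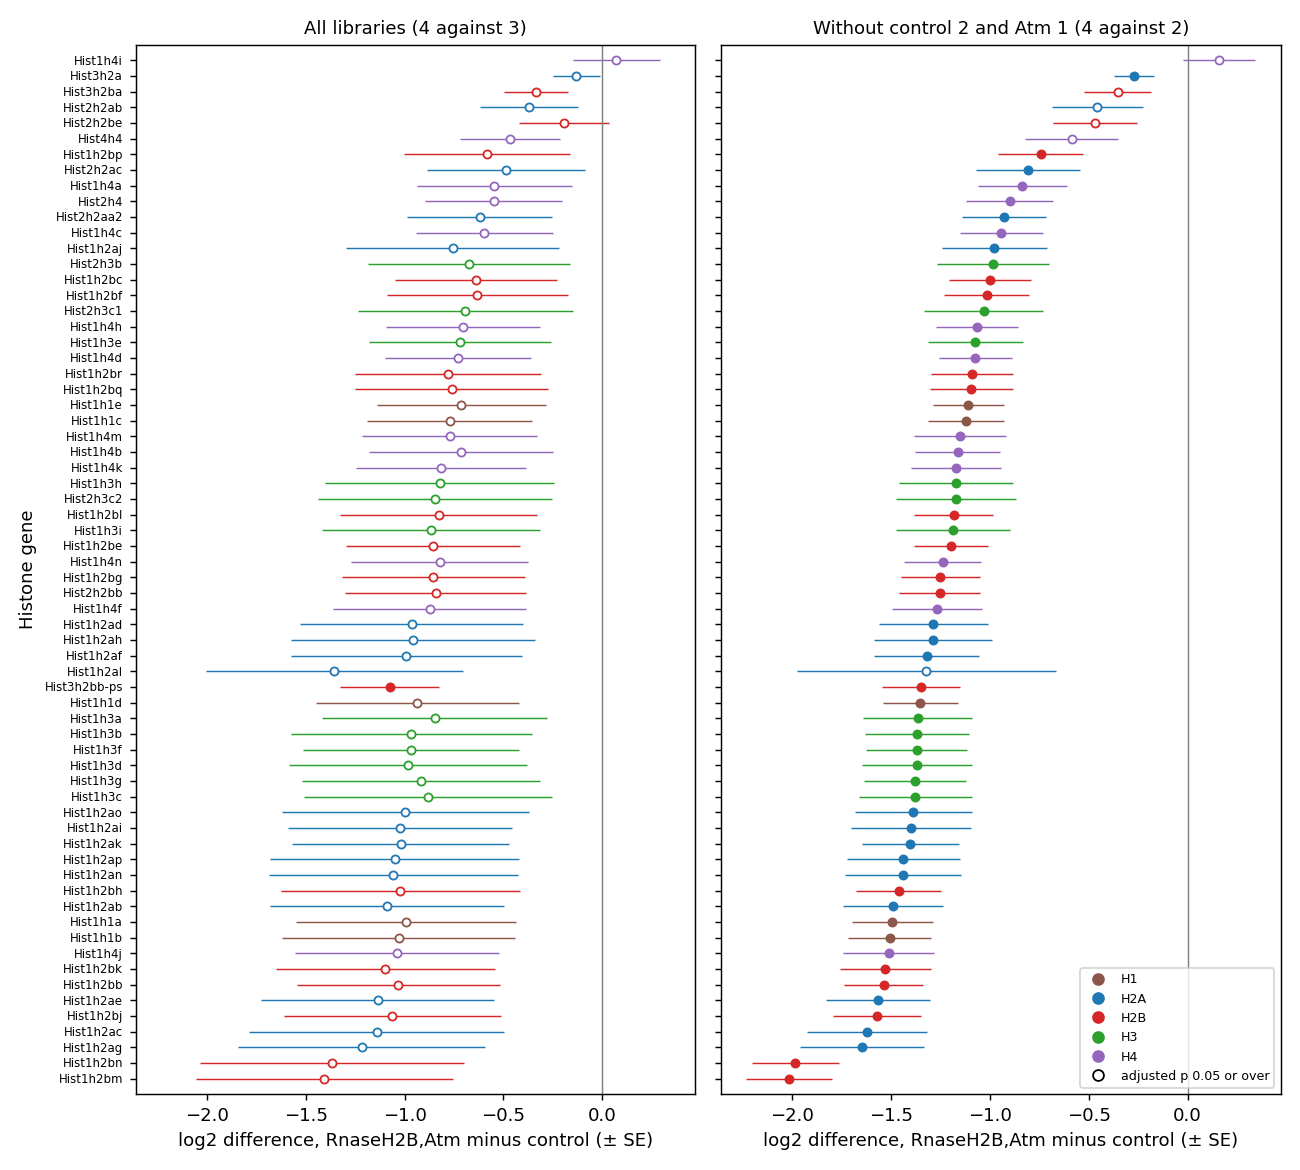
Difference of RnaseH2B,Atm from Control at P5 on the log2 scale (limma estimate and SE) for the 66 members tested, with all libraries and without control replicate 2 and Atm replicate 1; colours give the histone class and filled points an adjusted p below 0.05. With all libraries 1 member is called, and without the 2 libraries 60 are, with Hist1h2bm and Hist1h2bn at the low end and Hist1h4i above 0.

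The per-gene values followed one order. Hist1h2bm was at 7.09, 5.05 and 6.67 log2 CPM in controls, where replicate 2 is the value inside the RnaseH2B,Atm range. Its difference was -2.02 ± 0.22 (limma adjusted p = 4.7e-05) without the 2 libraries and -1.41 ± 0.65 (0.169) with them. Hist1h2bn differed by -1.99 ± 0.22 and Hist1h2ac by -1.62 ± 0.30 without them. The control values of Hist1h2ac were 6.20, 4.37 and 5.41, and its RnaseH2B,Atm values 4.72, 4.30, 4.16 and 3.56. Hist1h4h, at 8.15, 6.92 and 7.84 in controls, differed by -1.07 ± 0.21 (0.00134), Hist1h4d by -1.07 ± 0.18, Hist1h1e by -1.11 ± 0.18 and Hist1h1c by -1.12 ± 0.19. Called lower in that fit were 5 of 5 H1, 16 of 18 H2A, 16 of 18 H2B, 12 of 12 H3 and 11 of 13 H4 genes. The 11 tested members with an octamer in the promoter had a median of -1.49 and the 46 without it -1.18. These medians are a description with no test, since members share clusters, near-identical sequence and in part the upstream windows.

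A few members did not follow. The 6 of 66 not called without the 2 libraries were Hist1h2al, Hist1h4i, Hist2h2ab, Hist2h2be, Hist3h2ba and Hist4h4. Hist1h4i was at 4.51, 4.57 and 4.11 log2 CPM in controls, 4.18, 3.82 and 4.36 in RnaseH2B and 4.62, 4.32, 4.63 and 4.30 in RnaseH2B,Atm. The groups overlapped with controls, and the difference from control was 0.16 ± 0.18 (limma adjusted p = 0.490). Hist3h2ba was at 6.03, 5.89 and 5.86 in controls and 5.51, 5.29, 5.78 and 5.79 in RnaseH2B,Atm. Here all 4 were below all 3 controls, and the difference was -0.35 ± 0.17 (0.106). Hist2h2be was at 3.28, 2.19 and 2.75 in controls against 2.42, 2.60, 2.65 and 2.52. Control replicate 2 lay below all 4 RnaseH2B,Atm libraries and the other controls above them, and the gene differed by -0.47 ± 0.21 (0.0899) without that library. Hist3h2a was called lower with a small difference of -0.27 ± 0.10 (0.041), while Hist1h2al varied widely within groups, between 3.98 and 5.37 in controls, and differed by -1.32 ± 0.66 (0.114). Of the 6 members listed as having polyadenylated forms, Hist1h1c, Hist1h2ac, Hist1h2bc and Hist3h2a were called lower and Hist2h2be and Hist3h2ba were not. Hist1h2bc differed by -1.001 ± 0.21.

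Other genes of DNA replication were lower beside the histones, by less in the median. Without the 2 libraries, 28 of 30 S phase genes were called lower in RnaseH2B,Atm against control, with a median of -0.78, as were 20 of 20 mitosis genes (-0.86) and 14 of 14 histone chaperones. In that fit 22.2% of all features were called lower. Examples are the thymidine kinase gene Tk1 (-1.10 ± 0.17), the transcription factor gene E2f1 (-1.34 ± 0.22) and the histone chaperone gene Nasp (-0.74 ± 0.10). Of 21 genes for histone mRNA processing and transcription 10 were lower, among them Npat, the activator of histone transcription (-0.32 ± 0.07), Casp8ap2 (-0.62 ± 0.09) and Slbp (-0.28 ± 0.06), which encodes the stem-loop binding protein. Of 11 histone genes outside the clusters 9 were lower, with H2afz at -0.84 ± 0.12 and H3f3b at -0.54 ± 0.11. With all libraries 0 of 30 S phase genes, 0 of 20 mitosis genes and 3 of 14 chaperones were called, with a median of -0.41 over the S phase list. Of all features 9.86% were then called in either direction, and 3.38% of all features were called lower than control.

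**Figure D3:**
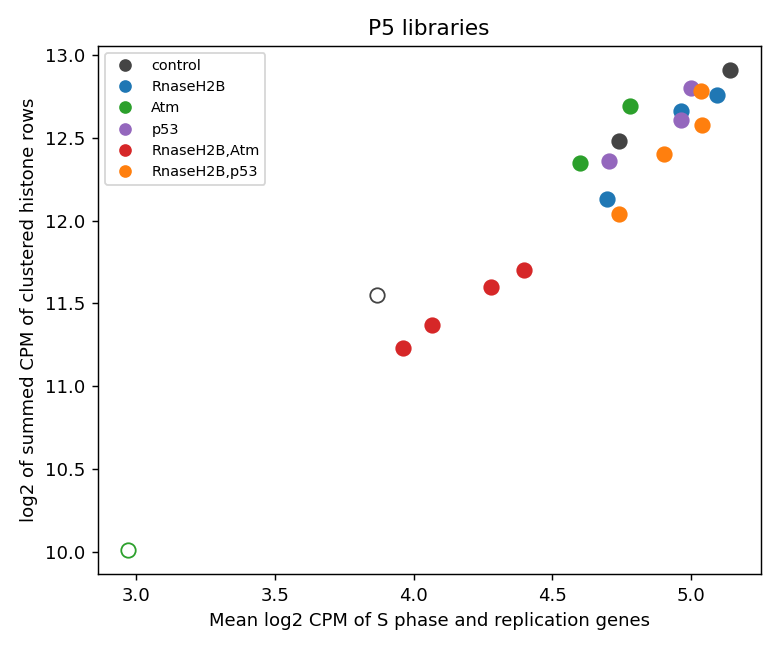
Mean log2 CPM over 30 S phase genes (horizontal) and log2 of the summed histone CPM (vertical) for the 20 P5 libraries, coloured by group. Both axes are read from the same libraries; the lowest point on both is Atm replicate 1, and the RnaseH2B,Atm libraries lie together at the low end with control replicate 2.

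Cell type markers moved with these groups, and their part in the histone result was not tested. Summed S phase RNA was 566 to 1405 CPM in control, 1025 to 1362 in RnaseH2B and 615.9 to 844.5 in RnaseH2B,Atm. Granule progenitor markers summed to 299 to 692 CPM in control, 512 to 692 in RnaseH2B and 309 to 441 in RnaseH2B,Atm, and 6 of 10 were called lower against control without the 2 libraries, Atoh1 by -1.69 ± 0.27. Of 10 granule neuron markers 8 were lower in that fit, where 22.2% of all features were called lower. Purkinje cell markers summed to 570 to 1230, 1141 to 1374 and 1529 to 2243 CPM in the same order of groups, with 8 of 9 called higher, and microglia markers to 153 to 178, 170 to 193 and 227 to 259, with 10 of 10 higher, where 19.1% of all features were called higher. Skeletal muscle markers, which the cerebellum lacks, summed to 6.07 to 7.63 CPM in control, 26.8 to 42.7 in RnaseH2B and 17.7 to 47.8 in RnaseH2B,Atm. Medulla and pons markers in RnaseH2B,Atm had a median difference of 1.85 from control and -1.66 from RnaseH2B without the 2 libraries. In the latter comparison 12 of 12 were below 0, and 0 were called in either. No marker of the S phase, granule progenitor, granule neuron, Purkinje or microglia lists was at 0 in any P5 library. When the mean of the S phase list entered the fit without the 2 libraries, 7 members were called lower and 1 higher against control, where 1.97% of features were lower and 3.77% higher, an alternative chosen after seeing the data. The 7 are among the 60 called lower without the covariate and had differences of -0.92 to -0.40, while the median over the 66 was -0.06. They were the H1 genes Hist1h1a, Hist1h1b and Hist1h1d and the H2B genes Hist1h2bb, Hist1h2bj, Hist1h2bm and Hist1h2bn, and the member called higher was Hist1h4i, at 1.06 ± 0.12 (limma adjusted p = 0.000308). Against RnaseH2B in that fit Hist1h2bm (-0.78 ± 0.12) and Hist1h2bn (-0.68 ± 0.12) were lower and Hist1h4i was higher by 1.22, where 0.661% and 0.927% of features were lower and higher.

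The single mutant groups at P5 gave no member past the threshold. RnaseH2B against control had 0 of 66 called by limma, against 0.681% of features, with 2 at an unadjusted p below 0.05 and 0 by limma-voom. The median was 0.21 with all libraries and -0.17 without those that stand apart. The Atm group had 0 called against 0.0% of features, 1 at an unadjusted p below 0.05 and 0 by limma-voom, with a median of -0.72 with all libraries and -0.18 without those that stand apart. The p53 group had 0 called against 0.175%, with 1 and 0 likewise. Its median was 0.27 with 60 of 66 members above 0, and it turned to -0.11 with 6 above 0 without control replicate 2 and Atm replicate 1. The largest decrease in RnaseH2B and in p53 was that of Hist4h4, by -0.98 ± 0.27 (limma adjusted p = 0.115) and -0.92 ± 0.27 (0.341), or -1.10 ± 0.25 (0.0518) and -1.04 ± 0.25 (0.173) without the libraries that stand apart. Hist4h4 was at 6.46, 6.20 and 6.64 log2 CPM in controls, 5.56, 5.16 and 5.63 in RnaseH2B and 5.56, 5.38 and 5.61 in p53, with no overlap with control in either. The RnaseH2B,p53 libraries were at 5.61, 5.45, 5.30 and 4.86, while the Atm and RnaseH2B,Atm libraries, at 5.48 to 6.79 and 5.54 to 6.23, reached into the control range.

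Hist1h4i, an H4 gene, was higher in RnaseH2B,p53 than in RnaseH2B at P5. Against RnaseH2B, 1 of 66 members was called, against 3.02% of features. Hist1h4i was at 5.46, 5.30, 5.11 and 4.87 log2 CPM in RnaseH2B,p53, above each of the other 16 P5 libraries, the highest of which had 4.63. The difference from RnaseH2B was 1.07 ± 0.22 (limma adjusted p = 0.0186), and it was not called when RnaseH2B replicate 2 or 3 or RnaseH2B,p53 replicate 2 was left out. Against control it was 0.79 ± 0.22 (0.151) and against p53 0.88 ± 0.22 (0.202). No member was called by limma in these 2 comparisons, against 0.428% and 0.188% of features; 3 and 1 members had an unadjusted p below 0.05, and limma-voom called 0 in both. Without the libraries that stand apart Hist1h4i was called in all 3 comparisons, with 0.88 ± 0.18 (0.0498) against control, where 0.24% of features were called higher, 0.88 ± 0.16 (0.0279) against p53, with 0.188%, and 1.07 ± 0.16 (0.00262) against RnaseH2B, with 3.27%. In that fit Hist4h4 was lower than control by -1.24 ± 0.24 (0.0345; 0.201% of features lower) and no member was lower than in p53 (0.11% of features). Against RnaseH2B, Hist1h2bm was lower by -0.71 ± 0.19 (0.0372; 4.12% of features lower) and Hist3h2a higher by 0.41 (0.0148). Hist1h2bm was at 6.32, 6.05, 5.98 and 5.63 in RnaseH2B,p53, between the RnaseH2B and RnaseH2B,Atm libraries apart from 1 overlap with RnaseH2B. The difference between the effects of RnaseH2B deletion with and without the p53 label was called for 0 of 66 members by limma, against 0.00648% of features, with 1 at an unadjusted p below 0.05 and 0 by limma-voom. Its median was -0.33, and without the libraries that stand apart it was 0.04 with 0 called and 4 at an unadjusted p below 0.05. The difference for Hist1h4i was 1.16 ± 0.32 (0.269) with all libraries and 1.07 ± 0.25 (0.131) without them.

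At 9 weeks, in total RNA of the adult cerebellum, 65 members were listed and 52 were tested. The summed level was 662 ± 67 CPM (SD, n = 7) in control, with a range of 562 to 744, and 716 ± 90 in RnaseH2B, with a range of 588 to 832.1, a ratio of 1.08 with overlap. H4 genes held 46.9% of the control sum, and the highest members were Hist1h4h, Hist1h4d and Hist1h1e at mean levels of 5.99, 5.96 and 5.90 log2 CPM.

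In RnaseH2B at 9 weeks 7 members rose and 1 fell. The shares of all features called were 20.2% in all, 10.6% higher and 9.57% lower, so 7 of 52 higher is near the background. Of 52 members 42 were above 0, with a median of 0.18 where that of all features was 0.00. Hist1h2be, an H2B gene, had 2.65, 2.84 and 3.01 log2 CPM as lowest, median and highest of the controls and 3.03, 3.21 and 3.60 in RnaseH2B. It was the only one of 52 members without overlap, against 2.43% of features, and it rose by 0.43 ± 0.09 (limma adjusted p = 0.00678). Hist1h2ac rose by 0.55 ± 0.15 (0.0193), from a median of 0.85 to 1.41, with overlapping ranges of 0.45 to 1.23 and 0.97 to 1.77. Hist1h2bf rose by 0.55 ± 0.17 (0.0279), Hist1h4d by 0.29 ± 0.09 (0.0328), Hist1h3e by 0.31 ± 0.10 (0.0401), Hist2h3c2 by 0.48 ± 0.16 (0.0435) and Hist1h2bc by 0.34 ± 0.11 (0.0444). Among these, Hist1h4d had medians of 5.88 in control and 6.16 in RnaseH2B, within 5.52 to 6.06 and 5.78 to 6.27. Hist4h4 fell by 0.70 ± 0.21 (0.0285), from a control median of 4.42 (3.99 to 4.97) to 3.76 (2.92 to 4.35).

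**Figure D4:**
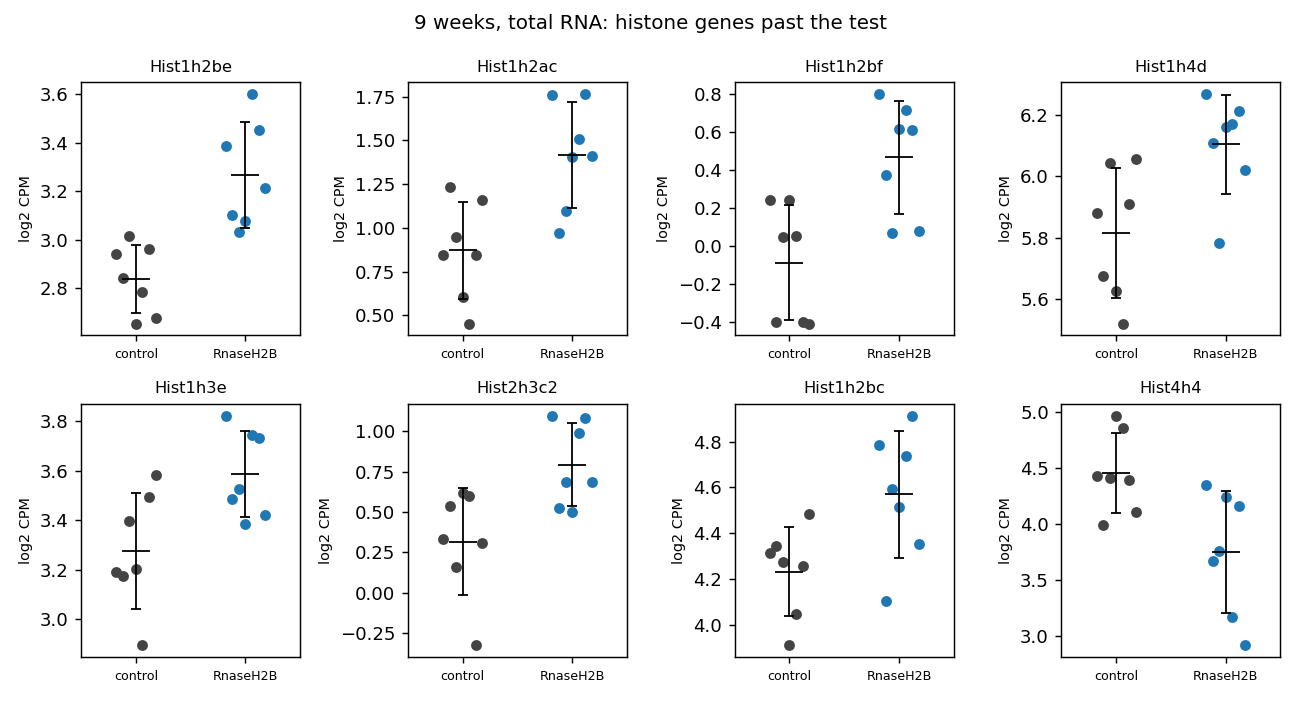
Log2 CPM of the 8 members called at 9 weeks in 7 Control and 7 RnaseH2B libraries, with mean and SD as horizontal bars. Hist1h2be is the member whose groups do not overlap, 7 members are higher in RnaseH2B and Hist4h4 is lower.

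The 9-week calls depended on which libraries were used. The libraries carry codes 11 to 16 (3 control and 3 RnaseH2B) or 50 to 58 (4 and 4), and for every gene the means of both code series are equal in the deposited table, to within 3.13e-09 log2 CPM. Within codes 11 to 16 and within codes 50 to 58 no member was called by limma, against 7.19% and 0.597% of features, with differences for Hist1h2be of 0.24 and 0.57, for Hist1h2ac of 0.27 and 0.76, for Hist1h4d of 0.19 and 0.36, and for Hist4h4 of -0.35 and -0.96. Unadjusted, 4 and 13 of 52 members were below 0.05. Hist1h2bf, Hist1h3e and Hist2h3c2 were above 0 in both series. With the code series in the fit 5 members were called, against 16.3% of features. Leaving out single libraries gave 2 to 9 calls: 2 without RnaseH2B replicate 5, 3 without RnaseH2B replicate 1, 4 without RnaseH2B replicate 6 or control replicate 2, 3 or 4, and 5 without control replicate 1, 5 or 6.

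Genes of proliferation were called no more often at 9 weeks than all features, of which 10.6% rose and 9.57% fell. The counts below are to be read against these shares. Of 23 S phase genes tested 1 rose and 2 fell, with a median of -0.15, and 0 of 9 mitosis genes were called. Of 21 genes of histone mRNA processing 5 fell, Lsm11 (a component of the U7 particle that cleaves histone pre-mRNA) by 0.35 ± 0.06 and Npat by 0.18 ± 0.06, and 0 of 10 histone genes outside the clusters were called. Microglia markers moved with the groups, at a summed 124 to 144 CPM in control and 155 to 213 in RnaseH2B with 7 of 10 risen, as did granule neuron markers, at 3665 to 4653 and 2327 to 3440 CPM with 5 of 10 fallen. Their part in the histone values was not tested.

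In the poly-A libraries of P28 only 31 members were listed and 16 were tested. The 16 had a median model of 1595 bases against 481 for the other 52 members. Of 23 members whose model runs over 100 bases past the stem-loop 11 were tested, of 22 with up to 100 bases 1, and of 23 with no stem-loop 4. AATAAA or ATTAAA, the poly-A signal letters, stood in the last 50 bases of 17 models, of which 10 were tested, and were absent from 51, of which 6 were. The filter is on CPM, which is not scaled for length. A longer counted gene therefore passes more readily at equal abundance, which tilts these splits. The order of levels was unlike that at P5. In P28 controls Hist1h2bc led with 35.6 ± 9.97 FPKM (SD, n = 5), followed by Hist3h2ba with 27.9 ± 8.63, Hist1h1c with 7.83 ± 1.17 and Hist2h2aa2 with 7.32 ± 3.42. The first pair and the second pair each overlap within their spread. Over all groups 2 members made 50% of the summed mean FPKM, against 17 at P5. Hist2h2aa2 was an exception to the pattern by model length, since it was tested with 35 bases after its stem-loop. Members with long ends that were not tested include Hist1h1d, Hist1h1e and Hist1h2bh, with 4884, 1153 and 1214 bases after the stem-loop. The models are those of GENCODE on GRCm38, while the submitters name mm9, so the counted genes need not have these lengths. Hist4h4, with 2445 bases after its stem-loop, was not in the P28 table. Its 87.1 CPM beside 366 FPKM in P5 controls belong to a counted gene far shorter than the model of 2863 bases, so it cannot be called an exception.

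RnaseH2B,Atm at P28 had higher levels of several histone genes in the poly-A libraries. Whether the reads came from polyadenylated forms was not tested. Against control 8 of 16 members rose and 1 fell. In this comparison 63.6% of all features were called, 31.5% higher, so a count of calls says little. For 8 of 16 members all 5 RnaseH2B,Atm libraries were above all 5 controls, against 23.5% of features. That share is tilted by the filter of 1 CPM in at least 5 libraries. Hist1h2ac and Hist1h2bq were below 1 CPM in every control and above it in every RnaseH2B,Atm library. The 5 RnaseH2B,Atm libraries alone were enough for these genes to pass, so their p-values are tilted too. Hist1h1c, a linker histone gene, was at 3.81, 3.40, 3.38, 3.82 and 3.66 log2 CPM in control and at 4.59, 4.85, 4.57, 5.35 and 4.63 in RnaseH2B,Atm. Every RnaseH2B,Atm library was higher, and the rise was 1.19 ± 0.18 (SE; limma adjusted p = 1.5e-05). Hist1h2ac was at -0.57, -0.70, -0.30, -0.43 and -0.81 in control and at 0.49, 1.25, 0.92, 1.29 and 1.01 in RnaseH2B,Atm, a rise of 1.55 ± 0.23 (1.1e-05) without overlap. Hist3h2a was at 3.004, 3.33, 2.72, 3.11 and 2.92 against 3.49, 3.74, 3.86, 4.13 and 3.67, a rise of 0.76 ± 0.14 (0.000109), also without overlap. Hist2h3c1, which shares all its 50-base windows with other sequence so that the source of its reads is uncertain, rose by 0.86 ± 0.19, Hist1h2be rose by 0.75 ± 0.19 (0.00233) and Hist1h3d rose by 0.96 ± 0.28 (0.00549).

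The fall was that of Hist3h2ba. It was at 4.34, 2.97, 4.30, 4.31 and 4.28 log2 CPM in control and 3.23, 2.47, 2.86, 2.90 and 2.99 in RnaseH2B,Atm, where control replicate 2 lies inside the range of the mutant. The difference was -1.15 ± 0.29 (limma adjusted p = 0.00207), and it was 0.66 when the S phase mean was a covariate. The most abundant member, Hist1h2bc, was at 4.94, 3.75, 4.79, 4.89 and 4.92 in control and 4.84, 3.89, 4.41, 4.82 and 4.71 in RnaseH2B,Atm and was not called. The sum over all members was 99 ± 18 CPM in control and 121 ± 19 in RnaseH2B,Atm, a ratio of 1.22 (1.02 on summed FPKM), with 2.32 for H1, 1.34 for H2A, 0.854 for H2B, 1.71 for H3 and 1.67 for H4 genes. RnaseH2B had 87 ± 21 and Atm 91 ± 22 CPM. Within groups, several members were low in the same libraries. Hist2h2aa2 was at -0.06 log2 CPM in control replicate 2 and 2.07 to 2.55 in the other controls, at -0.03, 0.21 and 0.52 in RnaseH2B replicates 1 to 3 and 2.06 and 1.41 in replicates 4 and 5, and at -1.09 in Atm replicate 4. Hist1h2bc and Hist3h2ba were low in control replicate 2 and Atm replicate 4 as well, whereas Hist2h2be, at 3.51 and 3.16 there against 2.83 to 3.23 in the other controls and 2.85 to 3.23 in the other Atm libraries, was not.

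**Figure D5:**
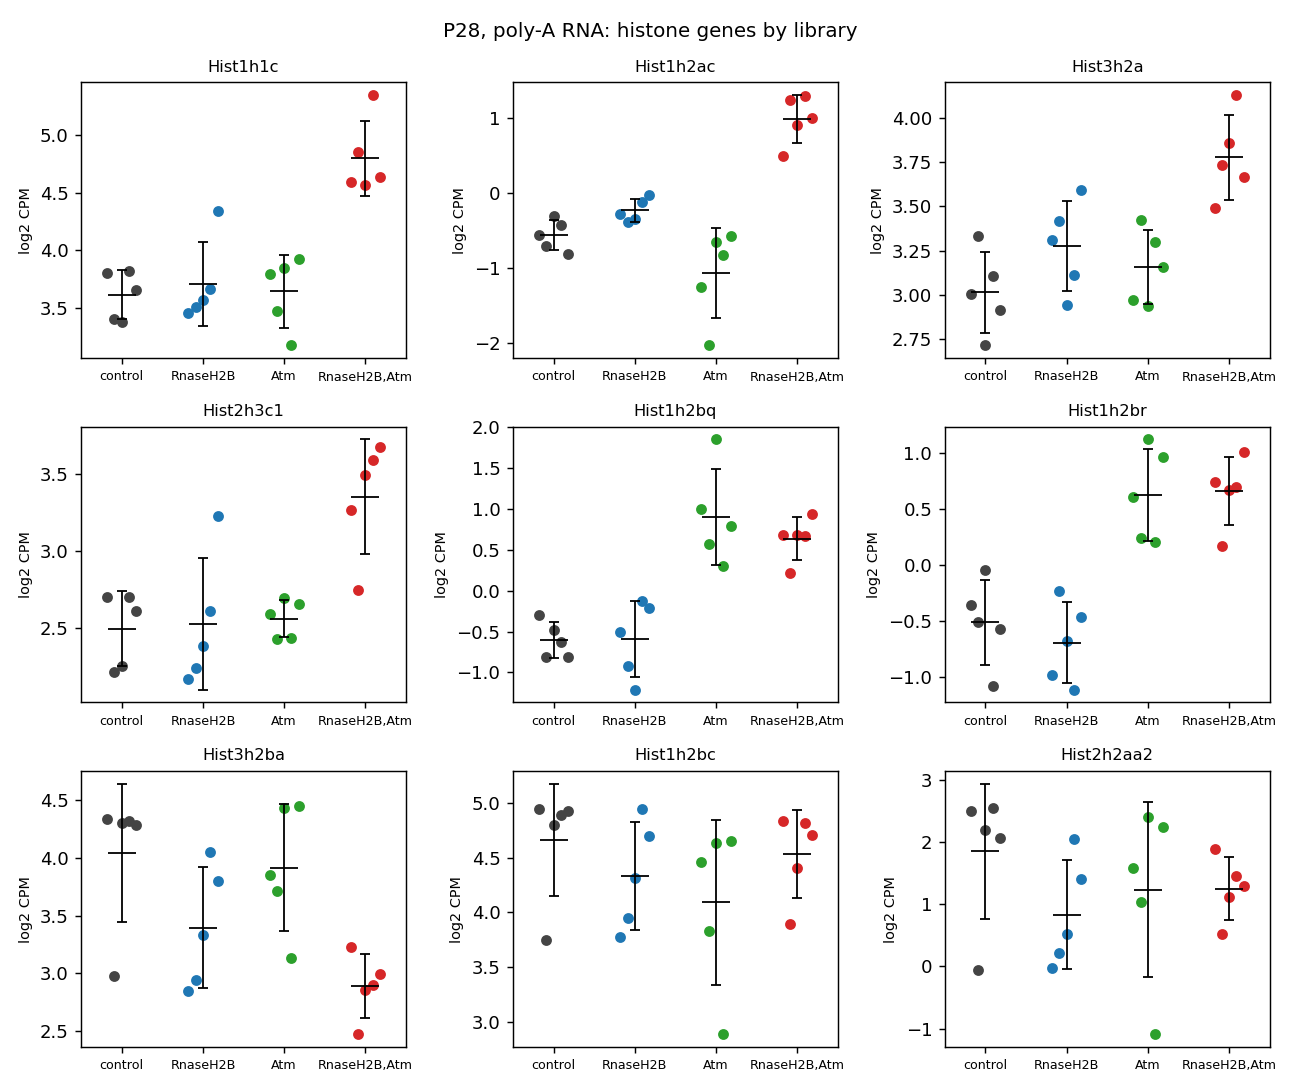
Log2 CPM of 9 members in the poly-A libraries of P28, in Control, Atm, RnaseH2B and RnaseH2B,Atm (5 each), with mean and SD as horizontal bars. Hist1h1c, Hist1h2ac, Hist3h2a and Hist2h3c1 are higher in RnaseH2B,Atm than in Control, Hist3h2ba is lower, and Hist1h2bq and Hist1h2br are higher in both groups labelled Atm.

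Hist1h1c and Hist1h2ac were also higher in RnaseH2B,Atm than in each single mutant group. Against Atm, 7 members rose and 1 fell, where 61.0% of features were called and 30.0% were higher, and 5 of 16 were wholly above, against 21.5% of features. Against RnaseH2B, 10 rose and 0 fell, where 49.5% were called and 24.9% were higher, and 4 of 16 were wholly above, against 18.5%. The limit set by the filter applies to these shares too, and to the p-values of Hist1h2ac here. That gene lay near the floor, between -2.04 and 1.29 log2 CPM over the P28 libraries. Hist1h2ac rose by 2.07 ± 0.23 (limma adjusted p = 3.02e-07) against Atm and by 1.22 against RnaseH2B, and Hist1h1c by 1.16 and 1.09. RnaseH2B alone had 0 of 16 members called by limma, against 5.21% of features, with 1 at an unadjusted p below 0.05 and 0 by limma-voom; without control replicate 2 it had 1, against 15.5% of features. The difference between the effects of RnaseH2B deletion with and without the Atm label was called for 5 members, all positive, where 37.7% of features were called and 18.7% were positive. These were Hist1h2ac (1.74; 0.000438), Hist1h1c (1.06; 0.00333), Hist1h3d (1.27; 0.0159), Hist2h3c1 (0.76; 0.0294) and Hist2h4 (0.76; 0.0375). The number was 3 without Atm replicate 2, RnaseH2B replicate 2, RnaseH2B,Atm replicate 4 or 5, or control replicate 4. In these runs 34.1% to 36.3% of all features were called.

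A pair of H2B genes differed in the Atm group itself. Hist1h2bq was at -0.29, -0.82, -0.49, -0.62 and -0.81 log2 CPM in control, 0.99, 0.57, 1.85, 0.30 and 0.79 in Atm, and 0.67, 0.22, 0.69, 0.67 and 0.94 in RnaseH2B,Atm. Both groups labelled Atm lay above all controls and above all RnaseH2B libraries, which ran from -1.21 to -0.13. Hist1h2bq rose by 1.51 ± 0.26 (limma adjusted p = 0.00332) in Atm and by 1.24 ± 0.26 in RnaseH2B,Atm, and Hist1h2br by 1.14 ± 0.23 (0.0121) and 1.17 ± 0.23. These were the 2 members of 16 called in Atm against control, where 1.86% of features were called. Hist1h2bq was below 1 CPM in every control and RnaseH2B library, so it passed the filter only through the groups labelled Atm. The count is tilted by that filter. With only the Atm and control groups in the fit 1 was called. Hist1h2bq and Hist1h2br share most of their 50-base windows with other sequence, so they are not independent of each other. Which of the near-identical genes gave the reads is uncertain.

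More replication genes fell than rose at P28. The background is high, since 31.5% of all features rose and 32.1% fell in this comparison, and the counts for chaperones, mitosis genes and processing genes are to be read against it. Of 28 S phase genes 3 rose and 16 fell in RnaseH2B,Atm against control, with a median of -0.26, among them Mcm5 of the replicative helicase (-1.12 ± 0.09). Of 11 histone genes outside the clusters 0 rose and 8 fell, among them H3f3b (-0.73 ± 0.11) and H1f0 (-1.07 ± 0.20), both of which encode histones made outside S phase. Of 14 mitosis genes 5 rose and 1 fell, of 12 chaperones 4 rose and 7 fell, and of 21 genes of histone mRNA processing 1 rose and 10 fell. Cell type markers moved with the same groups. Granule neuron markers summed to 6343 to 7241 CPM in control and 1709 to 3202 in RnaseH2B,Atm, with 10 of 10 fallen. Microglia markers summed to 125 to 141 and 193 to 256 CPM with 9 of 10 risen, meningeal and fibroblast markers to 123 to 229 and 364 to 434 with 9 of 10 risen, and midbrain markers, which lie outside the cerebellum, to 124 to 141 and 535 to 697 with 7 of 9 risen and 2 fallen. Their part in the histone values was not tested.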

How the data were processed

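Whole cerebellum RNA was extracted with TRIzol and sequenced as paired ends on a HiSeq 2000, per the labels' protocols, from total RNA at P5 and 9 weeks and after poly-A enrichment at P28. Trim Galore, STAR, BWA, HTSeq, limma and the mm9 build are named in the submitters' processing notes; their roles and versions are not given in the sources used here. Sequences and coordinates printed here are from GRCm38 and were matched by gene symbol, not converted from mm9.

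The authors deposited log2 CPM values, which were tested as given, and FPKM values, used to order members per length. At 9 weeks the deposited FPKM column holds values below 0, so its values, of another unit than plain FPKM, served only as an alternative after values below 0 were set to 0. At P5, rows that name no gene held a median of 23% (reads in no feature), 0.493% (ambiguous) and 0.939% (not aligned) of the reads and were dropped, although the authors' scaling includes them. Whole reads were recovered from 100% of the log2 CPM values at P5 and P28, and limma-voom was run on them with the authors' own effective library sizes in place of TMM factors. There were 0 columns without a sample.

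A feature was tested if it reached 1 CPM in at least 3 (P5), 5 (P28) or 7 (9 weeks) libraries, which left 15421, 16530 and 15078. At each age 1 limma 3.58.1 model with a variance trend (R 4.3.3) held every group, and p-values were adjusted by Benjamini-Hochberg over all features of a comparison; a feature was called below 0.05. "Rose" and "fell" are used of called features. Scripts were tested on simulated data. Libraries of a group were compared and none were copies. The labels state no pairing, and the main fits used none. In a screen of replicate numbers, same-numbered libraries deviated together in every pair only for p53 against control at P5 (r of 0.261 to 0.553 over 3 pairs).

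Members, gene lists and alternatives were chosen with earlier results of these data known. Members named are the 6 highest at each age, up to 6 called in each direction per comparison by adjusted p (or the 2 largest changes each way if none was), those with known polyadenylated forms, those with unusual libraries, and up to 4 called genes of each other list; Asf1b and further genes were left out, while Slbp, Npat, H3f3b and Atoh1 were named for their roles, after their values were seen. The sequence classes, motifs and the look at the neighbours of Hist4h4 were chosen after seeing the data. Summed levels, motifs and model ends are descriptions without a test. Python 3.11.15, pandas 2.3.3 and numpy 2.4.6 were used.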

Additional observations from a re-analysis of the deposited data

Results flagged for a closer look

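Among 238 groups of 4 to 10 libraries examined, 14 held a library farther from the others than Dixon's 95% limit; chance alone gives this in about 1 of 20 groups. No explanation was weighed.

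At P28, control replicate 2 was far below the other controls for 7 values. Its log2 summed CPM was 6.10 over all members (group median 6.70), 5.20 over H2B genes (6.005) and 1.32 over H4 genes (2.22). Its log2 CPM was 3.75 for Hist1h2bc (4.89), -0.057 for Hist2h2aa2 (2.20), 2.97 for Hist3h2ba (4.30) and -0.82 for Hist2h3c2 (0.56). RnaseH2B replicate 5 was far above its group for H1 genes, at a log2 summed CPM of 4.41 (3.66), and for Hist1h1c, at 4.34 log2 CPM (3.57). Atm replicate 3 was low for Hist2h2be at 2.85 (3.16). At 9 weeks, control replicate 5 was low for Hist2h2aa2 at 3.77 log2 CPM (4.68) and for Hist3h2bb-ps at 2.09 (2.67), control replicate 6 was low for Hist1h2bq at 1.15 (1.48), and RnaseH2B replicate 5 was high for Hist1h2br at 2.22 (1.75).

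At P28 the effect of RnaseH2B deletion differed by the Atm label for 5 of 16 members, tested as an interaction in limma. In that test 37.7% of all features were called, so the count is not above the background. The difference of effects on the log2 scale was 1.74 for Hist1h2ac, 1.06 for Hist1h1c, 1.27 for Hist1h3d, 0.76 for Hist2h3c1 and 0.76 for Hist2h4.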

How the results depend on the processing

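Of 430 alternative values for counts of members called and for summed levels, 361 stayed close to the main value; of the single members, 1250 values kept direction and side of the threshold, 92 kept direction but lost the call, 40 gained one and 15 changed sign. The cause of each change was not tested.

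Without P5 control replicate 2 and Atm replicate 1 the members called in RnaseH2B,Atm were 60 (against control), 56 (against Atm) and 58 (against RnaseH2B). In RnaseH2B,p53 they were 2 (against control), 1 (against p53) and 3 (against RnaseH2B). Of all features 41.4%, 22.7%, 23.1%, 0.441%, 0.298% and 7.39% were then called. The summed levels of p53 and RnaseH2B,Atm were 0.927 and 0.428 of control. With the S phase mean as a covariate and all libraries the members called were 18, 19, 3, 10, 6 and 9 in the same order. Of all features 20.6%, 23.3%, 4.14%, 1.64%, 0.408% and 14.3% were then called. The covariate gave 3 for RnaseH2B (5.20% of features) and 1 for p53 (0.447%) against control. It gave 1 (1.19%) and 1 (0.22%) for the P5 differences of effects with the Atm and p53 labels. At 9 weeks it gave 3 (4.36%), and for the P28 difference of effects 8 (49.55%). With both changes, chosen after seeing the data, the members called were 8, 19, 3, 10, 8 and 9. Of all features 5.75%, 15.7%, 1.59%, 1.41%, 0.571% and 15.96% were then called. Both changes gave 4 for RnaseH2B (6.23% of features) and 5 (2.83%) and 4 (1.135%) for the differences of effects. With only the groups compared, 0 (RnaseH2B,Atm against control), 59 (against RnaseH2B) and 1 (P28 Atm) were called. The shares of all features were 0.272%, 13.35% and 1.17%. Without a filter, P28 RnaseH2B,Atm against Atm gave 13 of 31 members, against 58.1% of all features. The difference of effects gave 8 of 31, against 34.15%. At 9 weeks codes 11 to 16 gave 0, codes 50 to 58 gave 0 and the code term 5, against 7.19%, 0.597% and 16.3% of features. Summed FPKM gave a P28 ratio of 1.02, and by log2 CPM 3 of the 6 highest P5 members were the same.

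With the replicate number as a block, 9 weeks gave 3 calls, against 9.22% of all features. The numbers there share no more than a number (r of -0.546 to 0.0861), and the block moved no other count by over 1.5 times.

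Leaving out single libraries gave 2 to 9 calls at 9 weeks, 3 to 6 for the P28 difference of effects, 0 to 1 for P28 RnaseH2B, 0 to 49 for P5 RnaseH2B,Atm against Atm (49 without Atm replicate 1, against 12.1% of all features), 0 to 4 against control (4 without control replicate 2, against 26.1%) and 0 to 1 for RnaseH2B,p53 against RnaseH2B. Summed ratios to control ranged from 0.889 to 1.37 (P5 RnaseH2B), 0.572 to 1.08 (Atm), 0.927 to 1.42 (p53), 0.428 to 0.657 (RnaseH2B,Atm), 0.849 to 1.30 (RnaseH2B,p53), 1.05 to 1.11 (9 weeks), 0.816 to 0.931 (P28 RnaseH2B), 0.852 to 0.995 (P28 Atm) and 1.14 to 1.28 (P28 RnaseH2B,Atm).

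Signs reversed with the S phase covariate for Hist3h2ba at P28 (0.59 against Atm, 0.66 against control), and at P5 in RnaseH2B for Hist1h4b (-0.0040) and Hist1h3a (-0.093). Hist1h3a was also -0.052 without the libraries that stand apart, -0.0094 with both changes, and ranged from -0.052 (without control replicate 2) to 0.91 when single libraries were left out. In P5 Atm against control, Hist1h2ac and Hist1h2bh were 0.22 and 0.16 with both changes; leaving out single libraries gave -1.66 to 0.21 and -1.59 to 0.23 (the high ends without Atm replicate 1), and for Hist1h2al -0.17 (without Atm replicate 2) to 1.03, with -0.064 without control replicate 1. In RnaseH2B,Atm against Atm, Hist1h2bp was -0.58 without both libraries and ranged from -0.58 (without Atm replicate 1) to 0.67 over single libraries left out.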

Other observations

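Hist4h4 and its chromosome 6 neighbour Dera, which encodes an enzyme of deoxyribose breakdown, had similar group patterns at P5; this was looked at after the values had been seen and is a description. Dera was at 3.57 to 3.87 log2 CPM in control, 3.32 to 3.82 in Atm and 3.35 to 3.84 in RnaseH2B,Atm, and at 2.61 to 2.90 in RnaseH2B, 2.61 to 2.76 in p53 and 2.58 to 2.79 in RnaseH2B,p53. The first 3 groups lay wholly above the other 3. The limma difference of Dera from control was -1.03 ± 0.13 for RnaseH2B,p53 (adjusted p = 0.00208), -1.02 ± 0.14 for p53 (0.00826) and -0.94 ± 0.14 for RnaseH2B (0.0123), while the difference in RnaseH2B,Atm was -0.16 ± 0.13 (0.442). At 9 weeks, where Hist4h4 fell, Dera differed by -0.07 ± 0.14 (0.769). The nearby histone gene H2afj was not called in any of these comparisons, with 0.23 ± 0.16 (0.612) in RnaseH2B at P5.

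At P28, Hist2h2be had within-group SDs of 0.15 to 0.31 log2 CPM, against 0.50 to 1.42 for Hist2h2aa2 and 0.48 to 0.96 for Hist1h4i. Some histone genes outside the clusters were low in the same libraries: H2afx was at 2.94 log2 CPM in control replicate 2 and 3.88 to 4.12 in the other controls, and at 2.54 in Atm replicate 4 against 3.12 to 4.05 in the other Atm libraries.

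Hist1h4d had very different levels at P5 and P28. Its mean over all libraries was 637 FPKM at P5, the highest of any member, and 0.33 FPKM at P28, in poly-A RNA. The GENCODE model holds 770 bases after the stem-loop. A mean of 7.46 log2 CPM beside 637 FPKM at P5 belongs to a counted gene far shorter than the model of 1138 bases. The bases after the stem-loop may thus not have been counted. Age and RNA selection cannot be told apart here.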
